A study of Mus musculus with 7 samples.

Results

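The genes described here build and run the machinery that copies DNA in S phase, and they were measured in pancreatic islets of pregnant mice. They were chosen by name, as 59 genes of origin licensing, helicase activation, polymerases, nucleotide supply, chromatin copying and the E2F switch, and all 59 were among the 19938 genes measured. Islets were taken on day 15 of pregnancy from 3 PrlR+/+ mice, which carry 2 intact prolactin receptor alleles, and 4 PrlR+/- mice, in which 1 of the alleles is null, all females on the C57BL/6 strain background. Timed matings were set up when the females were 12 to 16 weeks old. Each mouse's islets were run on an Affymetrix expression array of their own, so n is 3 and 4 mice throughout, and values are listed by mouse number within a genotype. The labels name no tissue to which the null allele is restricted, and 1 allele remains intact in the heterozygous mice. Whole islets hold endocrine, vascular, immune and stromal cells, and these preparations also held acinar RNA. Fewer cycling cells and less transcript per cycling cell therefore cannot be told apart.

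Before a cell copies its DNA, the origin recognition complex, Cdc6 and Cdt1 load the ring-shaped Mcm2 to Mcm7 helicase onto origins, a step called licensing. The kinases Cdc7-Dbf4 and cyclin E-Cdk2 then fire the origins with Cdc45 and the GINS complex, and the polymerases alpha, delta and epsilon copy the strands with the clamp Pcna. E2F transcription factors switch many of these genes on at the G1/S boundary once the retinoblastoma protein is phosphorylated. In mice, beta cells are known to replicate more in pregnancy, and signalling through the prolactin receptor is known to take part in this.

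The arrays were alike in median and correlation, but not in how often each held the extreme value of a gene. The median gene value lay between 7.34 and 7.37 (log2) on the 7 arrays, and the correlation of any 2 arrays lay between r = 0.988 and r = 0.997 across genes, which are not independent replicates. PrlR+/- 4 held the highest of the 7 values in 29.3% of all genes and the lowest in 17.8%. In the other mice these shares ran from 8.59% to 16.1% and from 8.76% to 18.9%. Endocrine hormone genes stood near the top of the range of 1.73 to 13.97 in every mouse, with Ins2 of beta cells between 13.23 and 13.36 and Gcg of alpha cells between 13.47 and 13.63. The acinar enzyme genes Ctrb1 and Cpa1 stood as high, at 13.66 to 13.79 and 13.62 to 13.77, so the preparations also held acinar RNA. The mean level of 10 acinar markers was 11.77 to 12.18 in PrlR+/+ and 11.83 to 12.44 in PrlR+/- mice. For 9 beta cell markers it was 12.05 to 12.21 and 11.92 to 12.16. Transcripts of the prolactin receptor itself were not analysed here, and the labels could not be checked against them. The number of arrays limits the precision. Arrays give no read depth, and 4 replication genes (Orc1, Gmnn, Gins1 and Cdc7) averaged under 5.71, the lower quartile of all gene means, where a value may not follow the transcript. Every difference below is the PrlR+/- mean minus the PrlR+/+ mean of log2 values, from a limma fit over all genes with 2-sided p adjusted by the Benjamini-Hochberg method.

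The comparison of the genotypes asked whether loss of 1 receptor allele changes the level of these genes in pregnancy. None of the 59 replication genes differed between the genotypes by limma at an adjusted p under 0.05, where 0% of all genes passed, and the smallest adjusted p of a replication gene was 0.99. At an unadjusted p under 0.05 the count was also 0 of 59, against 2.2% of all genes. The means of 28 genes were lower and of 31 higher in PrlR+/- islets, where 43.7% of all genes were lower and 55.7% higher. Their median difference was 0.00667, beside 0.0142 for all genes, and single differences ran from -0.175 for Orc4 to 0.178 for Pola2. For 0 of the 59 did every mouse of one genotype lie above every mouse of the other, against 2.24% of all genes. The median difference was -0.035 without PrlR+/+ 2 and 0.06 without PrlR+/+ 1. The count of lower means was 15 without PrlR+/+ 1 and 18 without PrlR+/- 4, but 38 without PrlR+/+ 2 and 35 without PrlR+/- 1. The share of all genes with lower means was not computed with a mouse left out.

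These data bound the size of a difference better for most of the genes than for a few. The 95% interval of the difference lay within 1.5-fold in both directions for 52 of the 59 genes, against 89.9% of all genes, and within 2-fold for 58, against 98.5% of all genes. The 7 wider intervals belonged to Mcm5, Mcm7, Pole, Pole2, Rrm2, Tyms and E2f8. For E2f8 the interval ran from 0.58-fold to 2.08-fold, and for Mcm2, by contrast, from 0.804-fold to 1.25-fold. The plot of the genotype differences gives the interval of each gene.

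**Figure D1:**
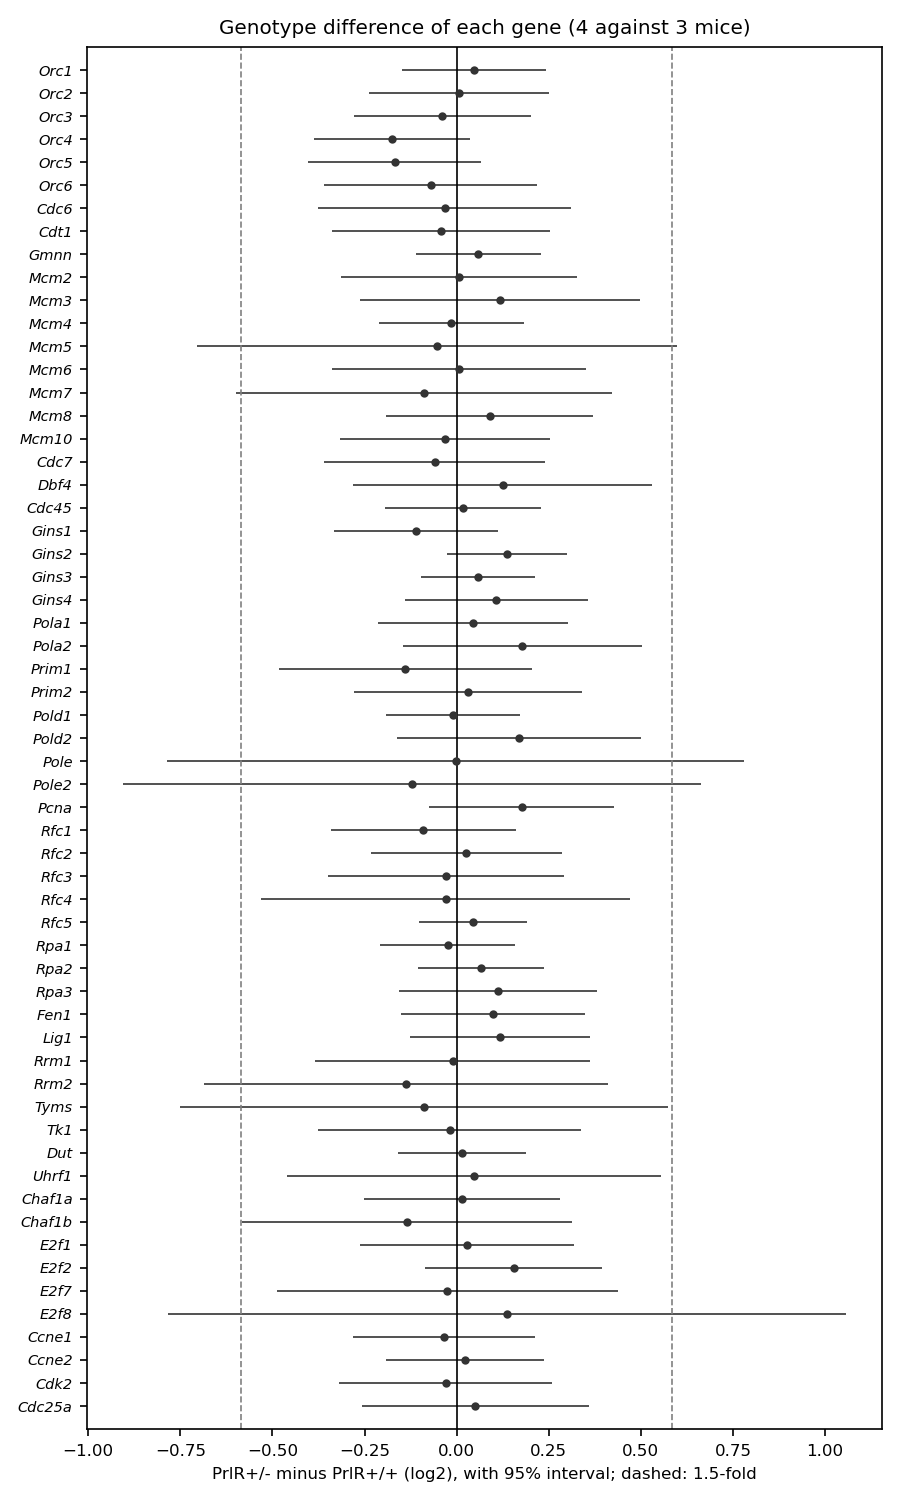
Difference of each of the 59 replication genes, PrlR+/- minus PrlR+/+ in log2 units (horizontal axis), with bars for limma's 95% interval and dashed lines at 1.5-fold. All 59 intervals cross 0, and those of 7 genes reach past a dashed line.

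Mice of the same genotype differed from each other: the median deviation of the 59 genes from their means over all mice had a pooled SD of 0.0863 (log2) between mice within the genotypes. The median difference between the genotypes, 0.00667, was taken over genes from group means, so it is not the same measure as this SD. In PrlR+/+ 1, 46 of the 59 genes lay above the mean of the PrlR+/+ mice, where 44.5% of all genes did, and in PrlR+/+ 2 only 16 did, where 51.7% of all genes did. Among the PrlR+/- mice, 47 genes lay above the genotype's mean in mouse 1 and 41 in mouse 2, against 22 in mouse 3 and 16 in mouse 4. The shares of all genes in these 4 mice were 45.9%, 44.7%, 45% and 57%. The median deviation of the 59 genes from the mean of all 7 mice was 0.10, -0.09 and 0.00143 in the PrlR+/+ mice and 0.117, 0.06, -0.02 and -0.0614 in the PrlR+/- mice. Both genotypes therefore held mice with high and with low values, and the summed log2 level of the 59 genes covered nearly the same range, 435.2 to 448.6 in PrlR+/+ and 435 to 449.7 in PrlR+/-. The map of deviations by gene and mouse shows the pattern.

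**Figure D2:**
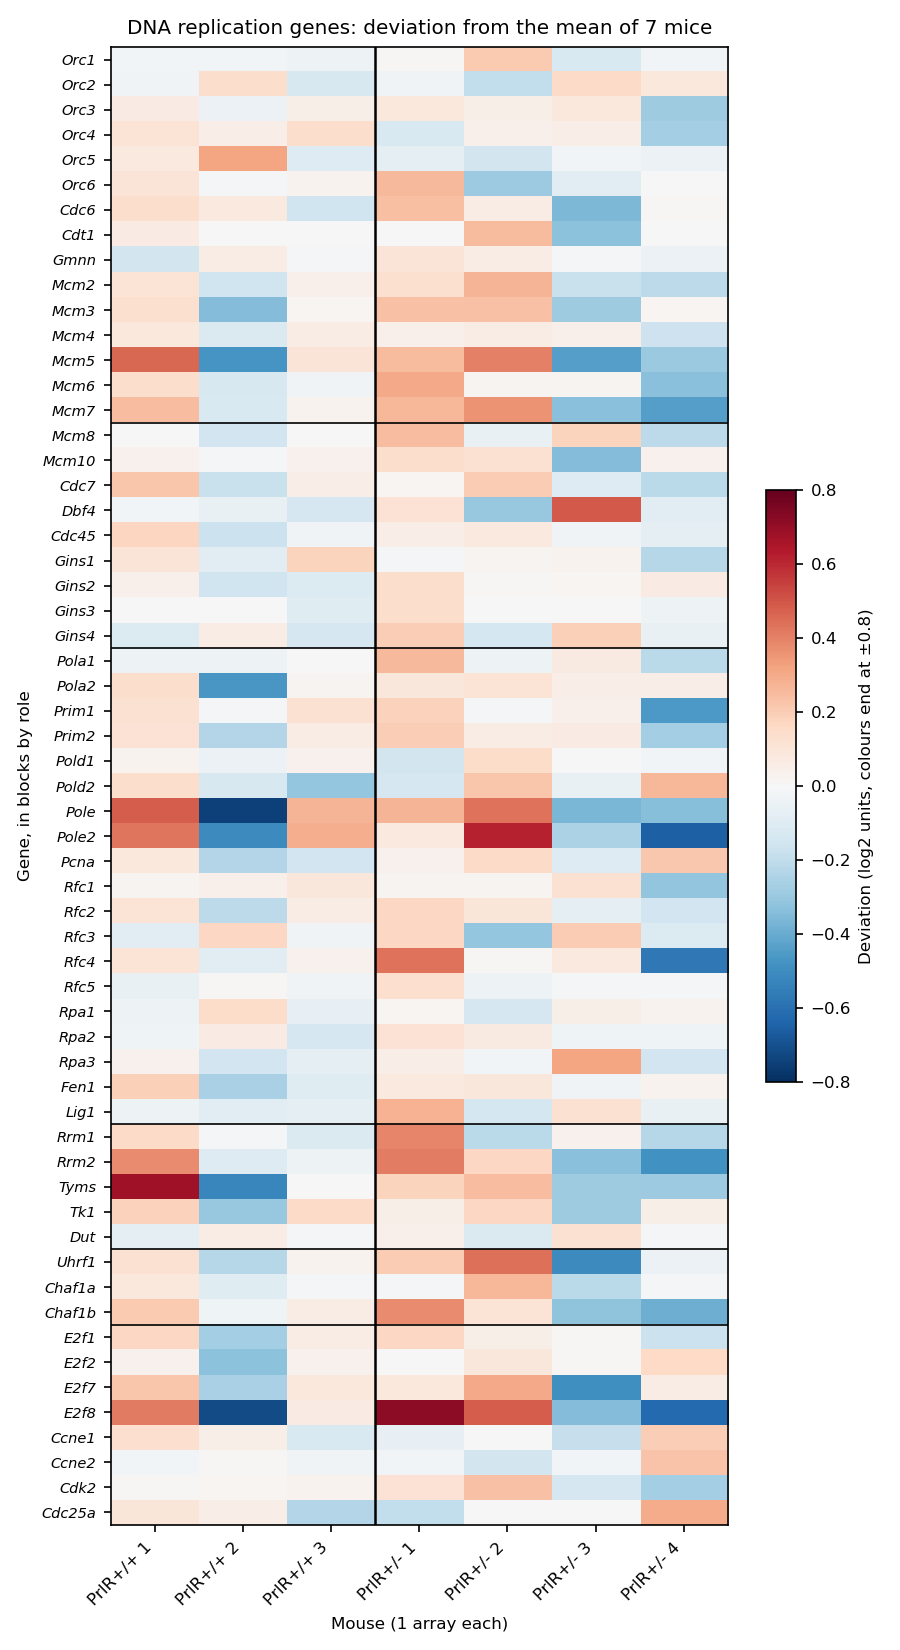
Deviation of each replication gene (rows, in blocks by role) from its own mean over the 7 mice (columns), in log2 units, with a vertical line between PrlR+/+ and PrlR+/- mice. Warm colours dominate in PrlR+/+ 1, PrlR+/- 1 and PrlR+/- 2, and cold colours in PrlR+/+ 2 and PrlR+/- 4, with exceptions such as Orc5 and Dbf4.

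The spread between mice was uneven across the 59 genes. Their median SD between mice, pooled within the genotypes, was 0.178 (log2), against 0.135 for all genes, and 45 of the 59 lay above that all-gene median. A spread above that of all genes was not particular to them. The median SD was 0.221 for 25 mitosis genes, 0.232 for 10 acinar markers and 0.277 for 9 stellate cell and fibroblast markers. It was smaller, at 0.16, for 50 other replication, fork and checkpoint genes and, at 0.124, for 9 beta cell markers. The middle quartiles of mean level held 50 of the 59, where the lower of them had a median SD of 0.183 for replication genes and 0.132 for all genes and the upper one 0.173 and 0.155. Past the 90th percentile of all genes, an SD of 0.272, lay 11 of the 59 where 10% of all genes do: E2f8, Pole2, Pole, Tyms, Mcm5, Rrm2, Mcm7, Uhrf1, Rfc4, E2f7 and Chaf1b. Dbf4 was the next below that line, at an SD of 0.263, and Chaf1b the lowest above it, at 0.293. The steadiest genes were Rfc5, with an SD of 0.0632, Gins3 with 0.0712 and Gins2 with 0.0803.

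**Figure D3:**
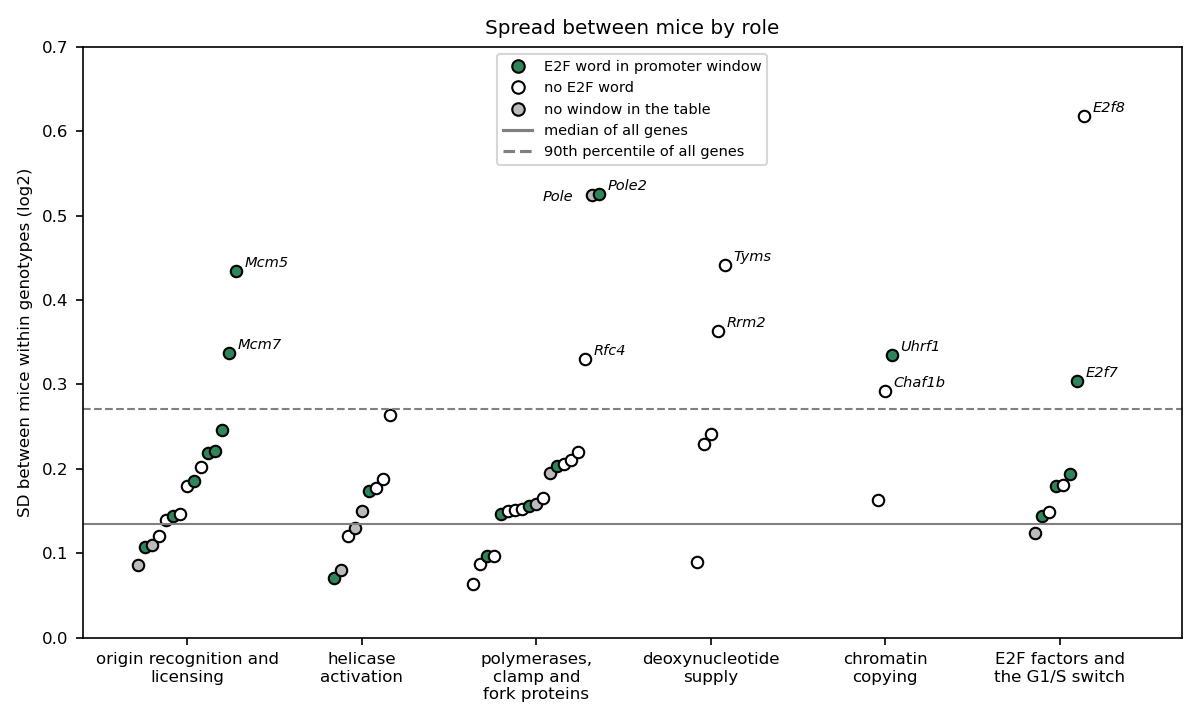
SD between mice within genotypes (vertical axis, log2 units) of each replication gene, by role, with lines at the median and the 90th percentile of all genes. Of the 11 genes above the dashed line none is a helicase activation gene, and filled green points mark promoters with an E2F word as defined in the text.

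Among the licensing genes Mcm5 and Mcm7 of the helicase ring had SDs between mice past the 90th percentile of all genes. None of the 15 passed between the genotypes, with 9 means lower and 6 higher in PrlR+/- islets and a median difference of -0.0325. Mcm5, a subunit of the helicase ring, was at log2 values of 8.30, 7.37 and 7.94 in PrlR+/+ mice 1 to 3, and at 8.09, 8.24, 7.40 and 7.54 in PrlR+/- mice 1 to 4. PrlR+/+ 2, PrlR+/- 3 and PrlR+/- 4 were low and the other mice high, so the genotypes overlapped fully, and the range over the 7 mice was 1.91-fold. Its genotype difference was -0.05 ± 0.28 (SE; limma, adjusted p = 0.995). Mcm7, of the same ring, stood at 8.19, 7.82 and 7.97 in the PrlR+/+ mice and 8.21, 8.30, 7.61 and 7.50 in the PrlR+/- mice, and was described after its values were seen. Mcm2 kept a narrower range, with 8.14, 7.87 and 8.07 against 8.16, 8.30, 7.85 and 7.82 and a difference of 0.01 ± 0.14 (SE). The mice fell in a similar order for Mcm2, with PrlR+/+ 2, PrlR+/- 3 and PrlR+/- 4 at the low end. Mcm4, Mcm3 and Mcm6 ranged over 1.19-fold, 1.49-fold and 1.56-fold.

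The origin recognition complex marks origins through the cell cycle, and its subunits Orc2, Orc3 and Orc6 ranged over 1.27-fold, 1.29-fold and 1.46-fold between the mice. Orc4 had the largest absolute difference of the licensing genes, -0.18 ± 0.09 (SE; limma, unadjusted p = 0.0915, adjusted p = 0.99). Its values were 8.21, 8.15 and 8.24 in the PrlR+/+ mice and 7.98, 8.14, 8.15 and 7.83 in the PrlR+/- mice, so PrlR+/- 3 reached the lowest PrlR+/+ mouse. Orc5 was highest in PrlR+/+ 2, at 9.09, the mouse that was lowest for Mcm5, and lay between 8.63 and 8.85 in the other 6 mice. Orc1, the subunit known to be made under E2F control, was dim at 4.74, 4.74 and 4.72 against 4.77, 4.97, 4.64 and 4.74, with a difference of 0.05 ± 0.08 (SE). Of the loading factors and their brake, Cdc6 differed by -0.03 ± 0.15, Cdt1 by -0.04 ± 0.13 and geminin, encoded by Gmnn, by 0.06 ± 0.07 (SE). Cdc6 and Cdt1 were both lowest in PrlR+/- 3, at 5.76 and 6.65.

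E2F factors bind short GC-rich words, and such words were frequent in front of the licensing genes. RefSeq promoter windows of GRCm38.p6, from 250 bases before to 50 after the transcript start, were found for 50 of the 59 genes and searched on both strands for TTTCCCGC, TTTCGCGC, TTTGCCGC and TTTGGCGC. The 4 words can overlap each other on opposite strands. At least 1 was held by 20 of the 50 genes (40%), against 3.48% of the 15614 measured genes with a window and 2.26% of all 32851 windows. Among licensing genes the count was 8 of 13, the largest share of any role. These 8 are shown with 30 bases around the first word of the window, written along the gene's strand with the words in capitals:
Orc1: ttcggttagtgGCGCGAAAagttttctcct
Orc3: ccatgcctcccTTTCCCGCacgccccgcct
Cdc6: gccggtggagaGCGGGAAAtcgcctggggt
Cdt1: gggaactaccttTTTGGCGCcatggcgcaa
Mcm3: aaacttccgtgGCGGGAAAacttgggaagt
Mcm5: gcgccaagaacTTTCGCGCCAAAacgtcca
Mcm6: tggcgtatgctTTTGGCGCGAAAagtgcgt
Mcm7: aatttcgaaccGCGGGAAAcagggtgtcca
Their coordinates are chr4:108579416-108579445 for Orc1, chr4:34614965-34614994 for Orc3, chr11:98908002-98908031 for Cdc6, chr8:122568035-122568064 for Cdt1, chr1:20820275-20820304 for Mcm3, chr8:75109345-75109374 for Mcm5, chr1:128359797-128359826 for Mcm6 and chr5:138172030-138172059 for Mcm7, on the minus strand for Orc3, Mcm3, Mcm6 and Mcm7 and on the plus strand for the others. In Mcm5 and Mcm6 a word on each strand overlaps, which makes a longer run of capitals. The word of Cdt1 begins at base 33 and that of Mcm3 at base 20, counted from the start as base 1, and the other 6 lie before it. A match describes the letters only and is not a measured binding site.

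Helicase activation genes had the lowest median SD between mice of the 6 roles, 0.15. Of the 9, 0 passed between the genotypes and 0 lay past the 90th percentile of spread, with 3 means lower and 6 higher and a median difference of 0.0583. Gins2, a subunit of the GINS complex that holds the active helicase together, had the smallest unadjusted p of all 59 genes. It was at 7.67, 7.47 and 7.52 in the PrlR+/+ mice and 7.77, 7.64, 7.65 and 7.70 in the PrlR+/- mice. PrlR+/+ 1 lay inside the PrlR+/- range, and the difference was 0.14 ± 0.07 (SE; limma, unadjusted p = 0.0894, adjusted p = 0.99). Dbf4, the activator of the kinase Cdc7, was at 6.36, 6.32 and 6.25 against 6.50, 6.08, 6.87 and 6.29. It was thus highest in PrlR+/- 3 and lowest in PrlR+/- 2, the reverse of Mcm7 in these 2 mice. Its difference was 0.13 ± 0.17 (SE). Cdc45, which joins Mcm2 to Mcm7 and GINS in the active helicase, differed by 0.02 ± 0.09 and Mcm10, which helps to activate it, by -0.03 ± 0.12 (SE). Mcm8, a relative of the ring subunits with a role in DNA repair, differed by 0.09 ± 0.12 (SE).

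Of the 19 genes that work at the fork, Pole and Pole2 of polymerase epsilon had the widest ranges between the mice. None of the 19 passed between the genotypes, with 8 means lower and 11 higher and a median difference of 0.0317. Pole2, an accessory subunit of polymerase epsilon, was at 6.41, 5.47 and 6.27 in the PrlR+/+ mice and 6.06, 6.60, 5.73 and 5.33 in the PrlR+/- mice, a range of 2.41-fold. Pole, its catalytic subunit, was at 6.50, 5.27 and 6.29 against 6.29, 6.45, 5.65 and 5.68, a range of 2.35-fold, and was chosen after its values were seen. For both genes PrlR+/+ 2, PrlR+/- 3 and PrlR+/- 4 were low and the other 4 mice high. Their genotype differences were -0.12 ± 0.33 for Pole2 and -0.0025 ± 0.33 for Pole (SE). The catalytic subunits of the other replicative polymerases, Pold1 of delta and Pola1 of alpha, ranged over 1.22-fold and 1.39-fold.

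Pcna, the sliding clamp, did not follow that order. It was at 10.59, 10.27 and 10.35 in the PrlR+/+ mice and 10.54, 10.66, 10.40 and 10.72 in the PrlR+/- mice, highest in PrlR+/- 4, with a difference of 0.18 ± 0.11 (SE; limma, adjusted p = 0.99). A second probe set with the symbol Pcna had the same value on all 7 arrays, and mice carry Pcna pseudogenes, so the value is uncertain as to the gene. Pola2, the accessory subunit of polymerase alpha, had the largest absolute difference of the fork genes, 0.18 ± 0.14 (SE). Its values of 8.16, 7.55 and 8.04 against 8.11, 8.13, 8.07 and 8.07 show that 1 mouse, PrlR+/+ 2, was low. Without PrlR+/+ 2 the difference of Pola2 was -0.005. Among the clamp loader genes Rfc4 had an SD between mice past the 90th percentile of all genes: it was 8.53 in PrlR+/- 1 and 7.52 in PrlR+/- 4 and between these values in the 5 other mice. Rpa1, the large subunit of the single-strand binding protein, differed by -0.02 ± 0.08 and Lig1, which seals the lagging strand, by 0.12 ± 0.10 (SE).

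Genes of deoxynucleotide supply followed the order of Mcm5 in part. Of the 5, 4 had lower means in PrlR+/- islets, with a median difference of -0.0192, and 0 passed. Tyms, which makes thymidylate, was at 8.18, 6.98 and 7.50 in the PrlR+/+ mice and 7.68, 7.75, 7.22 and 7.21 in the PrlR+/- mice. All 4 PrlR+/- mice lay inside the PrlR+/+ range, and the difference was -0.09 ± 0.28 (SE). Rrm2, the subunit of ribonucleotide reductase that is made in S phase, was at 7.95, 7.47 and 7.53 against 7.98, 7.74, 7.24 and 7.09, with a difference of -0.14 ± 0.23 (SE), the largest absolute one of the role. PrlR+/+ 1 and PrlR+/- 1 were highest for Rrm2 and PrlR+/- 4 lowest. Dut, which removes dUTP, ranged over only 1.18-fold. The 2 probe sets of thymidine kinase Tk1 had differences of -0.0192 and -0.0408, and those of Rpa3 of 0.112 and 0.0817.

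Chromatin copying and E2F genes showed the widest swing of a single gene. Uhrf1, which brings the maintenance DNA methyltransferase to new DNA, was at 6.49, 6.14 and 6.40 against 6.57, 6.81, 5.86 and 6.32, with a difference of 0.05 ± 0.22 (SE). It was highest in PrlR+/- 2 and lowest in PrlR+/- 3. Chaf1b, of the chromatin assembly factor, was at 7.69, 7.45 and 7.54 against 7.86, 7.59, 7.16 and 7.09, with a difference of -0.13 ± 0.19 (SE). E2f8, a repressor of the E2F family that is itself an E2F target, was at 6.97, 5.84 and 6.62 in the PrlR+/+ mice and 7.27, 7.04, 6.21 and 5.93 in the PrlR+/- mice. That range of 2.69-fold was the widest of the 59 genes, and PrlR+/+ 2 and PrlR+/- 4 were lowest. Its genotype difference was 0.14 ± 0.39 (SE; limma, adjusted p = 0.99), and it was -0.1825 without PrlR+/+ 2. The related repressor E2f7 was lowest in PrlR+/- 3, at 7.15.

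The activators and cyclins of the G1/S switch moved less. E2f1 was at 9.15, 8.71 and 9.04 against 9.15, 9.03, 8.99 and 8.81, lowest in PrlR+/+ 2 and PrlR+/- 4, with a difference of 0.03 ± 0.12 (SE). E2f2 had the largest absolute difference of the role, 0.16 ± 0.10 (SE). Its values were 6.84, 6.48 and 6.84 against 6.81, 6.90, 6.82 and 6.97, and PrlR+/+ 2 was again the low mouse. Ccne1, which encodes cyclin E1, was at 7.98, 7.89 and 7.72 against 7.78, 7.84, 7.66 and 8.04, highest in PrlR+/- 4, and its difference was -0.03 ± 0.11 (SE). Ccne2 and Cdc25a, which encodes a phosphatase that activates Cdk2, were also highest in PrlR+/- 4, at 7.58 and 9.87, while Cdk2 itself was lowest there, at 6.64. Of the 8 genes, 3 means were lower and 5 higher, with a median difference of 0.0258.

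**Figure D4:**
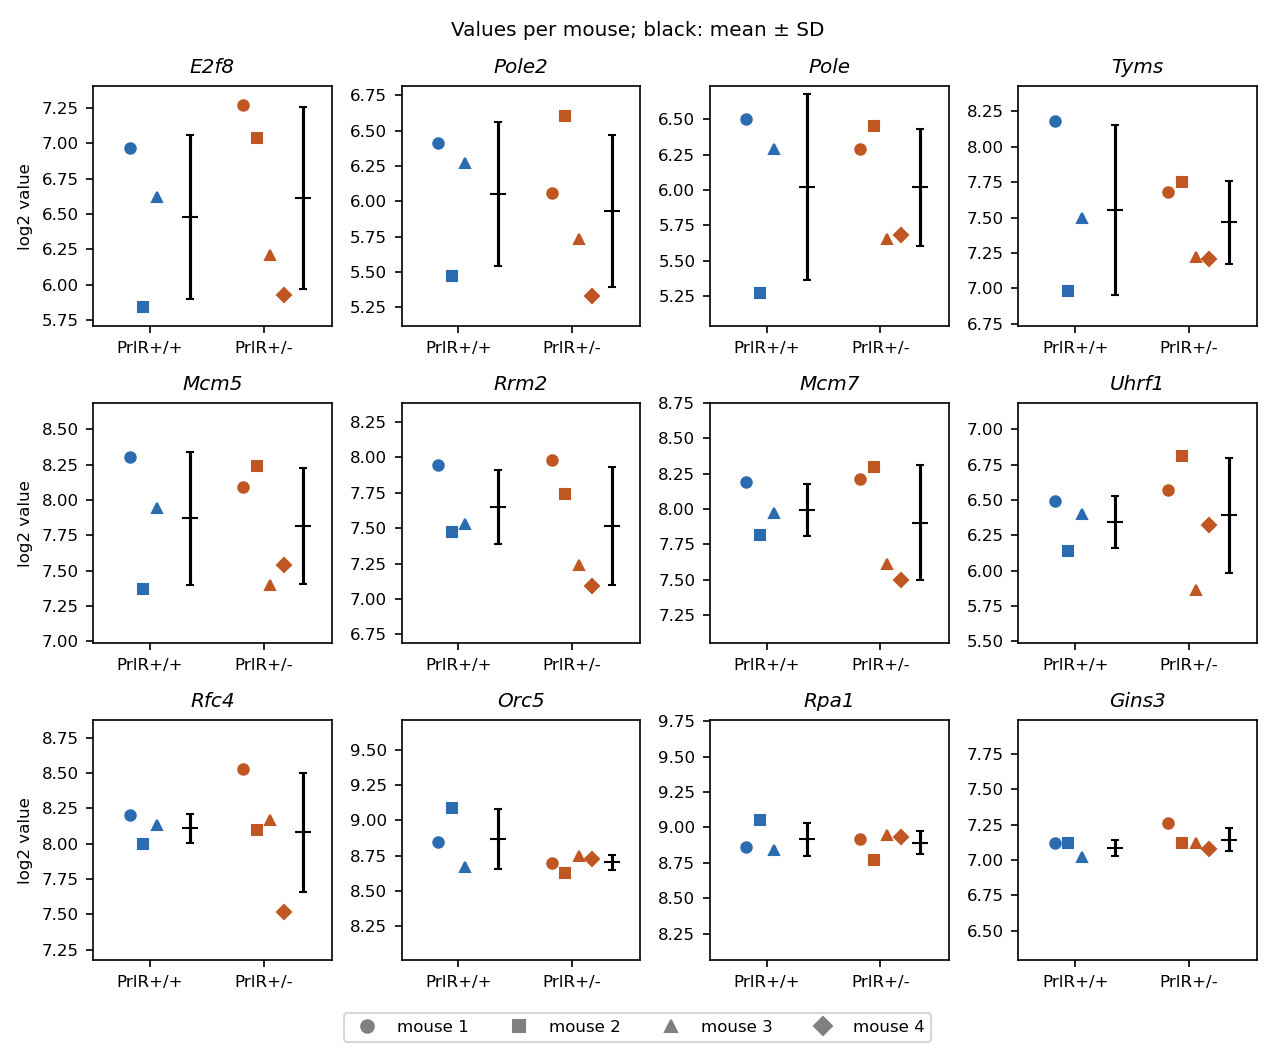
Log2 values of 12 replication genes in each mouse (points, with a symbol per mouse number), with the mean ± SD of each genotype in black; every panel spans the same log2 range. In the upper panels, PrlR+/+ 2, PrlR+/- 3 and PrlR+/- 4 lie low for Pole and Tyms, while Orc5, Rpa1 and Gins3 stay within 1.38-fold.

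Genes with an E2F word had slightly larger spreads between mice than genes without, a description with no test. Among replication genes with a window, the median SD between mice was 0.19 for the 20 with an E2F word and 0.179 for the 30 with none. Past the 90th percentile of all genes lay 5 of the 20 (25%) and 5 of the 30 (16.7%). Across all measured genes the medians were 0.144 for 543 genes with a word and 0.134 for 15071 with none, and 12.3% and 9.85% lay past it. The CCAAT box, written CCAAT and searched on both strands, was held by 62% of the 50 genes and 41.7% of all measured genes with a window, and the GC box, GGGCGG, by 82% and 52.9%. Of 20 mitosis genes with a window, 1 held an E2F word. The 250 bases before the start are shown for the 4 genes of widest and the 2 of narrowest spread with a window, E2F words in capitals:
Pole2: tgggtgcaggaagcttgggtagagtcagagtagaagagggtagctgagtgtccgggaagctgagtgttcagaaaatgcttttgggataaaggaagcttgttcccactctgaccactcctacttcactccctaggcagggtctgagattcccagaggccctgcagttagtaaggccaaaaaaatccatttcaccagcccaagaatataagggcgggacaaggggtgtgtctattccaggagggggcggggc
Mcm5: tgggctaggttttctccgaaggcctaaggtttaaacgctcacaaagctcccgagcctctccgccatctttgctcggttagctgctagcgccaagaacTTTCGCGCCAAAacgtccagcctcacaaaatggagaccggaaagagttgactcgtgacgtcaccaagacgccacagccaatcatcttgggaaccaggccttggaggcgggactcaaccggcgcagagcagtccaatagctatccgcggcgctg
E2f8: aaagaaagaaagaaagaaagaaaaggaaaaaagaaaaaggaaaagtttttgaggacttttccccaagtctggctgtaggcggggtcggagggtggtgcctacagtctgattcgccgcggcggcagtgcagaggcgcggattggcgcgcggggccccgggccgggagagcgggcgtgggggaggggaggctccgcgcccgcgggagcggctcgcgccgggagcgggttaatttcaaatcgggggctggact
Tyms: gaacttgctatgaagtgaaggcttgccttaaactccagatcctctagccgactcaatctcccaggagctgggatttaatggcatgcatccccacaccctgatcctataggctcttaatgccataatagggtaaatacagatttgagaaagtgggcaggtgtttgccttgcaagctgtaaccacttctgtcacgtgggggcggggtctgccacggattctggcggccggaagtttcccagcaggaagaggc
Gins3: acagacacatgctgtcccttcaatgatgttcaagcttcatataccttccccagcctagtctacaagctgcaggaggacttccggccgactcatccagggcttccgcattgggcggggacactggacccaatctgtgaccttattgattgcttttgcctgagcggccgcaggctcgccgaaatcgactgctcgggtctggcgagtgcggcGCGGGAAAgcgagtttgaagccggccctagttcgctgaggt
Rfc5: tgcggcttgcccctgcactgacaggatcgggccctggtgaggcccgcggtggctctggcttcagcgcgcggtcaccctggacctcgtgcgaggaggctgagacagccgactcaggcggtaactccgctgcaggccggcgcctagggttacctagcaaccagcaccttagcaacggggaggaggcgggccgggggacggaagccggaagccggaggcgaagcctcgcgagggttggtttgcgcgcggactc
They lie at chr12:69228191-69228440, chr8:75109259-75109508, chr7:48881597-48881846, chr5:30073626-30073875, chr8:95633309-95633558 and chr5:117389024-117389273 of GRCm38.p6 in that order, on the plus strand for Mcm5 and Gins3 and on the minus strand for the other 4. The word of Pole2, TTTGGCGC on the strand opposite to the gene, begins at base 11 counted from the start and is outside the stretch shown. In Mcm5, whose range was 1.91-fold, the words begin 153 and 149 bases before the start, and in Gins3, whose range was 1.18-fold, the word begins 41 bases before it. No word was found in these windows of E2f8, Tyms and Rfc5.

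Other genes of the replication pathway were not called between the genotypes either. Of 52 further replication, fork and checkpoint genes 50 were measured, and 0 passed by limma at the adjusted threshold, where 0% of all genes passed. Their means were lower for 28 and higher for 22, with a median difference of -0.0267. Of all genes 43.7% were lower and 55.7% higher, with a median difference of 0.0142. At an unadjusted p under 0.05 there was 1 of the 50, against 2.2% of all genes. It was Dtymk, which makes dTDP (-0.20 ± 0.08, SE; limma, unadjusted p = 0.0463, adjusted p = 0.99). The helicase gene Mcm9 followed (-0.23 ± 0.11, SE). Among 14 genes of the other E2F factors, their DP partners and the pocket proteins, 0 passed, with 4 lower and 10 higher. E2f4, a mostly repressive E2F, was at 0.29 ± 0.19 and Rb1, which encodes the retinoblastoma protein, at -0.14 ± 0.10 (SE).

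In mitosis genes the same mice stood at the extremes. Of 25 measured, 24 lay above the genotype's mean in PrlR+/+ 1 and 24 in PrlR+/- 1, against 2 in PrlR+/+ 2 and 1 in PrlR+/- 4, and 0 passed between the genotypes. Their median deviation from the mean of all mice was 0.201, -0.156 and 0.00571 in the PrlR+/+ mice and 0.294, 0.00857, -0.00857 and -0.214 in the PrlR+/- mice. Mki67, a marker of cycling cells, was at 8.40, 7.41 and 7.98 against 8.31, 8.36, 7.73 and 7.38, and the topoisomerase gene Top2a at 7.78, 6.96 and 7.34 against 7.82, 7.41, 7.23 and 6.47. For both genes PrlR+/- 4 was the lowest mouse and PrlR+/+ 2 the second lowest. Cenpe and Bub1b, of the kinetochore and its checkpoint, had the smallest unadjusted p of these genes, with differences of -0.15 ± 0.10 and -0.13 ± 0.09 (SE).

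Markers of acinar, endothelial, stellate and lymphocyte cells varied between the mice in other orders. Those of beta cells were lowest, within each genotype, in PrlR+/+ 2 and PrlR+/- 4. The mean level of 5 markers of other islet endocrine cells was also lowest there, at 11.31 and 11.37. By median deviation these 5 were lowest in PrlR+/+ 2 (-0.08) and PrlR+/- 1 (0). The median deviation of 9 macrophage and myeloid markers was 0.0357, -0.166 and 0.00286 in the PrlR+/+ mice. It was 0.0243, 0.0871, 0.0257 and 0.0257 in the PrlR+/- mice. In PrlR+/- 2, where 41 replication genes lay above the genotype's mean, the median deviation was 0.281 for 10 acinar markers, 0.276 for 9 endothelial markers and 0.246 for 9 stellate cell and fibroblast markers. The stellate and fibroblast markers were at -0.243 in PrlR+/- 3, the mouse with the lowest Uhrf1, Cdc6 and Cdt1, and their summed log2 level ran from 65.82 to 67.91 in PrlR+/+ and from 65.71 to 69.92 in PrlR+/- mice. In PrlR+/+ 1 and PrlR+/- 1, the other mice with high replication genes, the acinar medians were -0.0814 and -0.0571 and the stellate ones -0.0329 and -0.0143. Lymphocyte markers were at 0.224 in PrlR+/- 4, with a summed level of 49.97 to 50.76 in PrlR+/+ and 50.35 to 52.90 in PrlR+/- mice. The median deviation of 9 beta cell markers was -0.06 in PrlR+/- 4 and -0.02 in PrlR+/+ 2, the mice also lowest in their genotypes for replication and mitosis genes. It was 0.0357 and 0.0614 in PrlR+/+ 1 and 3, and 0.0514, -0.01 and 0.06 in PrlR+/- 1 to 3. The summed level of the beta cell markers ran from 108.47 to 109.90 in PrlR+/+ and from 107.31 to 109.46 in PrlR+/- mice. The lowest value of any probe set was 1.73, so a value above 0 does not show that a marker was detected. The part of these cell types in the levels of replication genes was not tested.

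**Figure D5:**
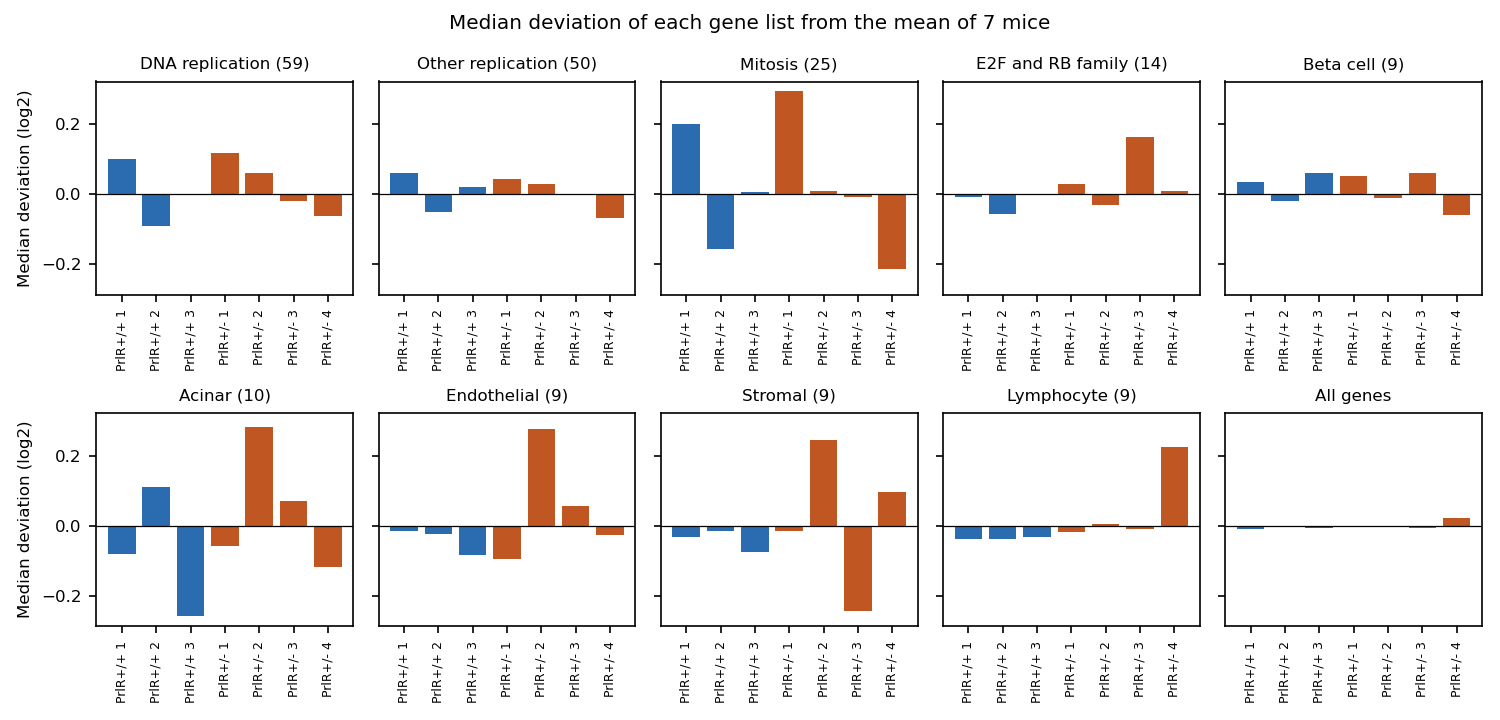
Median deviation of each gene list from the mean of the 7 mice (bars, log2 units), blue for PrlR+/+ and orange for PrlR+/- mice, with the number of genes in the title of a panel. Replication and mitosis genes are high in PrlR+/+ 1 and PrlR+/- 1 and low in PrlR+/+ 2 and PrlR+/- 4, while acinar, endothelial and stromal markers are highest in PrlR+/- 2.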

How the data were processed

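Per the labels, biotin was put on 250 ng of each mouse's total RNA, with integrity numbers over 8.5. The values deposited by the authors, 1 column for each mouse, are taken as log2 from their range. Affymetrix Expression Console 1.2.0.20 is named in the submitters' processing notes. How it corrected background, normalized and summarized is not stated in the sources used here. No scan date or batch was analysed, so batch was not tested.

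Of 35556 probe sets, 21789 had 1 gene symbol in the platform annotation, 1621 several and 12146 none; only the first were used, with the probe set of highest mean for 999 genes with several. No filter or further normalization was applied. Groups came from the source labels. limma 3.58.1 (lmFit and eBayes, R 4.3.3) was fitted over all 19938 genes and tested on simulated data. Tables and promoter searches used Python 3.11.15 and pandas 2.3.3. The genes, lists and alternatives were chosen with earlier results of these data known. Genes were named by role; values per mouse are given for the largest difference and largest spread of each role and for 7 genes fixed by name, and, where stated, for others chosen on sight of their values. Alternatives were other variance models, array weights, 2 scalings, a filter on genes under the 40th percentile, the mean of all probe sets, an acinar covariate, a replicate block, another threshold and leaving out each mouse.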

Additional observations from a re-analysis of the deposited data

Results flagged for a closer look

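In the 4 PrlR+/- mice, 1 mouse stood apart from the other 3 for 4 of the 59 replication genes (6.78%), by a gap above Dixon's 95% critical share of the group's range. Chance flags about 1 in 20 groups. The check was not run over all genes, where PrlR+/- 4 held the highest of the 7 values in 29.3% and the lowest in 17.8%. In PrlR+/- 4, Orc3 of the origin recognition complex was at 10.2 (log2), against 10.53 to 10.57 in the other PrlR+/- mice. The same mouse was low for the helicase gene Mcm4, at 7.39 against 7.6 to 7.62, and for the GINS gene Gins1, at 4.54 against 4.76 to 4.8. In PrlR+/- 2, Rpa1 of the single-strand binding protein was at 8.77, against 8.92 to 8.95 in the other 3. The 3 PrlR+/+ mice are too few for this check.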

How the results depend on the processing

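No replication gene and no gene at all was called at the adjusted threshold under any alternative run, and the smallest adjusted p of a replication gene over them was 0.818. The median difference, 0.00667, moved by less than 0.0863 under every alternative run for it. That limit is the SD between mice of the median deviation, which is not the same measure. With a mouse left out, the median difference could move by more than its own size. It was -0.035 to 0.06 with a mouse left out, with its sign changed without PrlR+/+ 2, PrlR+/- 1 or PrlR+/- 2, and -0.00333 with each array centred on its median gene. With array weights (0.293 to 2.74), chosen for this value after seeing the data, it was 0.0513. The trend and robust variance model, added likewise, changes only the variances. It therefore had to leave the median difference at 0.00667, and this is no check of that value. Single genes moved by less than their own SD between mice, but 43 of the 59 changed sign in at least 1 alternative. With groups of 3 and 4 mice, leaving out 1 mouse cannot move a difference past that SD, so for those runs the limit shows no stability. The count of lower means, 28, ran from 15 to 38 with a mouse left out. The count of genes whose groups do not overlap, 0, was 1 with each array centred on its median gene (Orc4, where 4.26% of all genes did not overlap) and 0 to 4 with a mouse left out; the 4 were Gins2, Pola2, Pcna and Fen1 without PrlR+/+ 1, where 6.71% of all genes did not overlap. The cause was not tested. The range of the median deviation between mice, 0.207, was 0.148 to 0.208 with a mouse left out. The filter on dim genes left 46 of the 59. With the replicate number as a block the median difference was 0.0533 and 0 genes were called; deviations of same-numbered mice correlated at 0.0896, -0.386 and -0.0287, and different animals share only a number.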
